A study of Rattus norvegicus with 10 samples.

Results

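The miR-29 family was measured as 3 probes, rno-miR-29a, rno-miR-29b and rno-miR-29c, among the 420 microRNA probes of a NanoString nCounter rat panel. The members were taken by name, as every microRNA probe with the number 29. RNA was taken from punched samples of the dorsal vagal complex (DVC), the hindbrain region that holds the dorsal motor nucleus of the vagus, cut from 200 um sections of 10 male Sprague Dawley rats with 1 sample per animal. The 2 animals of the RIPC+LAD group received remote ischemic preconditioning (RIPC, a temporary occlusion of the femoral vessels) 2 h before their left anterior descending coronary artery was ligated (LAD), the 3 animals of the LAD group were ligated without preconditioning, the 2 animals of the RIPC group were preconditioned without ligation, and the 3 age-matched controls (AMC) received neither. Ligated animals were sampled 24 h after the ligation. No genotype or transgene differed between the groups, and animal ages were not given in the labels. No sham-operated group was labelled in this series. The surgery and anesthesia themselves therefore cannot be told apart from the ligation or from the preconditioning. A punch mixes neurons, glia and vessels, and fewer cells of a type and less RNA per cell cannot be told apart.

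A microRNA guides a silencing complex to messenger RNAs that pair with its seed, the bases near its 5′ end, and lowers their translation or stability. The miR-29 family is best known as a repressor of extracellular matrix genes, collagens and elastin among them, and falls in the fibrotic border of the infarcted rodent heart. It also represses the DNA methyltransferases Dnmt3a and Dnmt3b, and in the mouse brain it increases as neurons mature and restrains pro-apoptotic BH3-only genes. These roles are background and were not measured here.

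The 3 mature sequences are shown because the members share a seed and differ only at a few bases outside it, which bears on what a probe count can separate. They were taken from RefSeq (rat assembly GRCr8), run 5′ to 3′, and carry the seed (bases 2 to 8) in capitals.
rno-miR-29a-3p: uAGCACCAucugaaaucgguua
rno-miR-29b-3p: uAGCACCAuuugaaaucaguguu
rno-miR-29c-3p: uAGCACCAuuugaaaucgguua
The deposited probe names give no arm, so the match to the 3p arm rests on the miRBase identifiers in the files (MIMAT0000802, MIMAT0000801 and MIMAT0000803). Of 693 mature names in the RefSeq table, the 3 members were the only ones with AGCACCA at bases 2 to 8. Counting positions from the 5′ end, miR-29c differed from miR-29a by C10U alone and was 95.5% identical over 22 bases. Against miR-29a, miR-29b carried C10U, G18A, U21G and A22U (81.8% identical) and was 1 base longer. Its 3′ end, AGUGUU, is known from human cells as part of a signal that directs miR-29b to the nucleus. Of the 693 names 2 end so, miR-29b among them, and neither miR-29a nor miR-29c does. The probe sequences were not used here, and whether a probe also counts the other members was not tested.

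The family is encoded at 2 loci. Mature miR-29a lies at chr4:60617968-60617989 on the minus strand, and the miR-29b product of Mir29b1 lies at chr4:60618342-60618364, with 291 bases between the hairpins. On the plus strand of chromosome 13, mature miR-29b from Mir29b2 lies at chr13:109098882-109098904 and miR-29c at chr13:109099412-109099433, with 447 bases between the hairpins. Mir29b2 and Mir29c lie inside the long noncoding RNA gene LOC102550527, and the nearest coding genes in the annotation order were Klf14 and Mkln1 on chromosome 4 and Cd34 and Cd46 on chromosome 13. The same mature miR-29b is made from both loci, so its count cannot be divided between them.

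Total microRNA counts were 80696 and 93246 in RIPC+LAD, 28485 to 102329 in LAD, 73293 and 90086 in RIPC and 90348 to 102824 in AMC. LAD 2 and LAD 3 were the shallowest samples. The strongest spike-in control fell into a low set (6725 to 8670 counts, both RIPC+LAD samples, LAD 2, LAD 3 and RIPC 1) and a high set (11724 to 14579 counts, LAD 1, RIPC 2 and all AMC samples). The strongest ligation control, as a percentage of that spike-in, was 111% and 172% in RIPC+LAD, 24.3% to 54.4% in LAD, 38.4% and 79.2% in RIPC and 38.9% to 85.6% in AMC, so RIPC+LAD lay above every other group. miR-124, the neuron-enriched microRNA, averaged 6743 counts per 100000 microRNA counts over the 10 samples, and all 6 neuron-enriched microRNAs listed were detected.

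The miR-29 members were among the abundant microRNAs of the DVC. All 3 exceeded the detection threshold (the mean plus 2 SD of the negative controls of the sample) in every animal, by 77.8 to 539 times for miR-29a, 34.2 to 215 times for miR-29b and 44.1 to 285 times for miR-29c. Among the 420 probes miR-29a ranked 9 to 16 over the samples, miR-29b 17 to 26 and miR-29c 17 to 28. The family together took 3.24% to 5.29% of all microRNA counts. miR-29a supplied 41.8% to 55.6% of the family counts, miR-29b 20.7% to 33.1% and miR-29c 18.1% to 28.3%. The sources used here hold no calibration between probes, so these shares are shares of counts.

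Levels are given as counts per 100000 microRNA counts of the sample. miR-29a, the most counted member, stood at 2262 and 2744 in RIPC+LAD, 2046, 2478 and 1615 in LAD, 2217 and 2351 in RIPC, and 2128, 1961 and 2176 in AMC. Both the second-highest and the lowest value belonged to LAD animals, and the controls lay close together. The group means were 2503 ± 341 in RIPC+LAD (n = 2), 2047 ± 432 in LAD (n = 3), 2284 ± 94.8 in RIPC (n = 2) and 2088 ± 113 in AMC (n = 3, SD throughout). Ordered by mean, RIPC+LAD stood first, then RIPC, AMC and LAD. RIPC+LAD and RIPC overlapped, as did AMC and LAD, whereas both RIPC samples lay above all AMC samples in counts per 100000 but not after TMM scaling (trimmed mean of M values), which the tests use, where RIPC stood at 2442 and 1968 and AMC at 1983, 1973 and 2419.

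miR-29b, the member with a product from both loci, stood at 1017 and 1096 in RIPC+LAD, 1157, 1711 and 709 in LAD, 892 and 1474 in RIPC, and 914, 809 and 1617 in AMC. Its means were 1057 ± 55.6 in RIPC+LAD, 1192 ± 502 in LAD, 1183 ± 411 in RIPC and 1113 ± 440 in AMC. The groups overlapped in every pairing, and outside RIPC+LAD the animals of a group differed by up to 2.41-fold. The lowest value, in LAD 3, rested on 202 counts, for which counting error alone gives a 95% Poisson interval of 615 to 814 per 100000, and this interval does not cover the spread between animals.

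miR-29c, which shares its seed and all but 1 base with miR-29a, stood at 1110 and 1452 in RIPC+LAD, 808, 979 and 916 in LAD, 1000.2 and 846 in RIPC, and 783, 998 and 1407 in AMC. Both RIPC+LAD samples lay above all LAD and RIPC samples, and AMC 3 came close to the higher of them. The means were 1281 ± 242 in RIPC+LAD, 901 ± 86.5 in LAD, 923 ± 109 in RIPC and 1062 ± 317 in AMC. Ordered by mean, RIPC+LAD was followed by AMC, RIPC and LAD, and each overlapped its neighbour in that order.

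**Figure D1:**
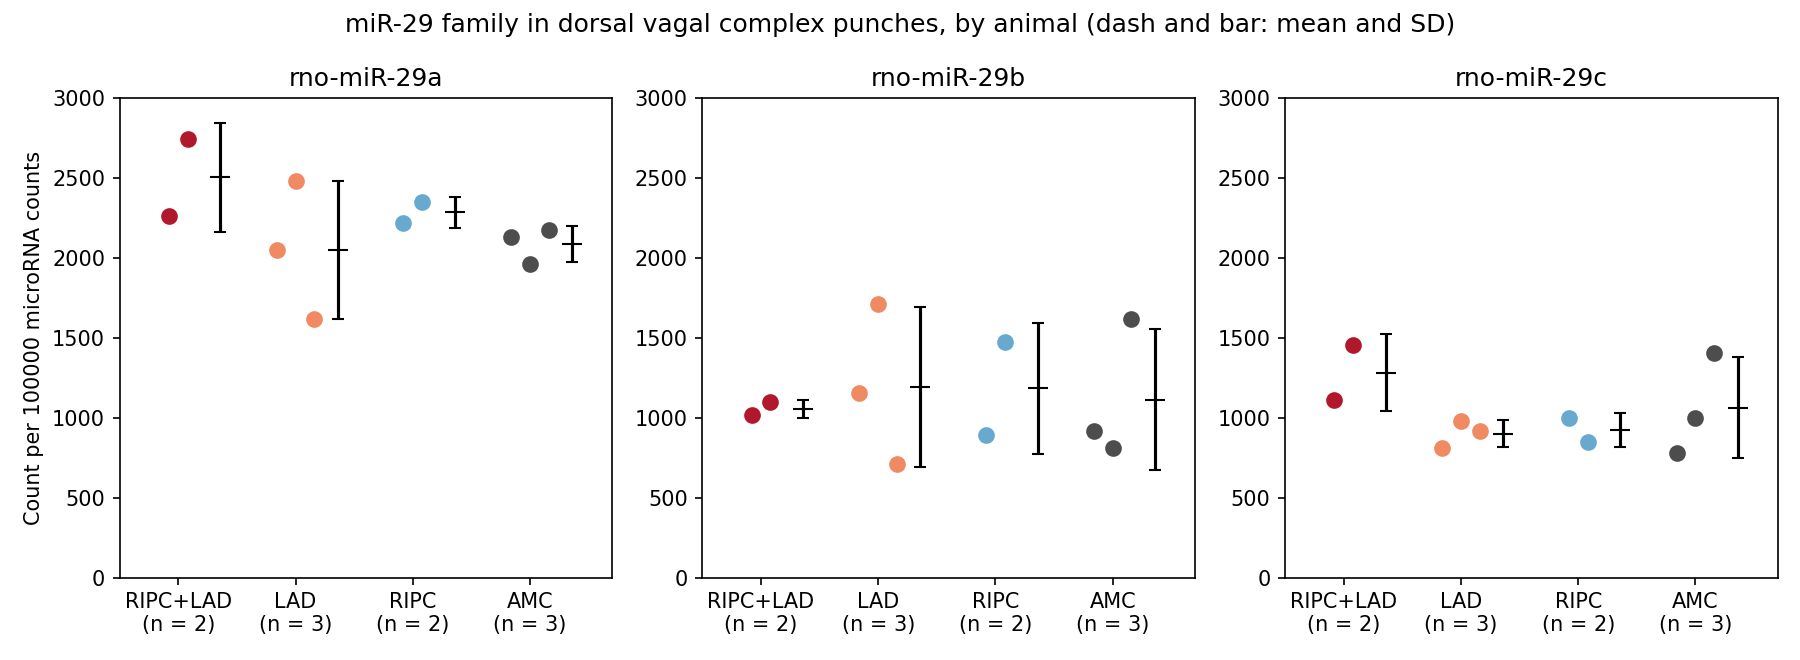
Counts per 100000 microRNA counts (vertical axis, linear from 0) of the 3 members in each of the 10 animals, with the group mean as a dash and the SD as a bar beside the points. miR-29a lies between 1615 and 2744 in all animals, miR-29b spreads within LAD, RIPC and AMC, and for miR-29c both RIPC+LAD points lie above all LAD and RIPC points.

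Summed over the members, the family stood at 4841 ± 639 counts per 100000 in RIPC+LAD, 4140 ± 971 in LAD, 4390 ± 397 in RIPC and 4264 ± 811 in AMC. The LAD values of 3240 to 5169 enclosed the lower RIPC+LAD value of 4389. Over the 10 samples the SD of log2 levels was 0.21 for miR-29a, 0.43 for miR-29b and 0.31 for miR-29c, against a median of 0.51 over the 253 detected microRNAs and of 0.33 over the 23 detected at a similar level. Only 3.16% of the detected microRNAs had a smaller SD than miR-29a, against 39.1% for miR-29b and 13.0% for miR-29c. Among the 23 at a similar level, 2 had a smaller SD than miR-29a, 18 than miR-29b and 8 than miR-29c.

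The comparison of RIPC+LAD with LAD asks what preconditioning before the ligation, together with its own surgery, changes. miR-29c was 1.57 times as high in RIPC+LAD as in LAD, a log2 fold change of 0.65 ± 0.34 (SE) with a 95% interval of −0.07 to 1.36, and did not pass the edgeR test (unadjusted p = 0.0720, adjusted p = 0.314). In counts per 100000 it was the only member whose samples did not overlap, with RIPC+LAD higher, against 11.9% of all detected microRNAs that separated in that direction. In TMM-scaled values miR-29a separated as well, at 2452 and 2970 in RIPC+LAD and 2112, 2320 and 1600 in LAD, against 18.6% of all detected microRNAs. For miR-29a the log2 fold change was 0.43 ± 0.28 (interval −0.17 to 1.03, edgeR adjusted p = 0.414), and for miR-29b it was −0.03 ± 0.39 (interval −0.86 to 0.80, adjusted p = 0.973). In this comparison 0 of 3 members and 0 of 253 microRNAs (0%) were called at an adjusted p of 0.05 by edgeR. At an unadjusted p of 0.05, edgeR counted 44 microRNAs, DESeq2 32 and limma-voom 46, none of them a member by edgeR. Over 12 other settings miR-29c passed that unadjusted threshold in 3, and with 1 sample left out in 1 of 10 fits. In these same settings and fits miR-29a and miR-29b did not pass it. The ligation control moved with these groups: with it as a covariate the log2 fold change was −0.24 for miR-29a, −1.16 for miR-29b and −0.27 for miR-29c. Both RIPC+LAD samples lay above all other samples in that control. In every comparison that includes RIPC+LAD, and in the interaction, this fit can therefore hardly separate the control from the group. Within the low spike-in set, the values were 0.43 for miR-29a, −0.04 for miR-29b and 0.56 for miR-29c.

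The comparison of LAD with AMC asks what the ligation without preconditioning, together with its surgery, changes. The log2 fold changes were −0.08 ± 0.26 for miR-29a (interval −0.62 to 0.47, adjusted p = 0.995), 0.02 ± 0.35 for miR-29b (interval −0.73 to 0.76, adjusted p = 0.995) and −0.31 ± 0.30 for miR-29c (interval −0.96 to 0.34, adjusted p = 0.967). All 3 members overlapped between the groups, and edgeR called 0 of 3 members and 0 of 253 microRNAs (0%), with 14 at an unadjusted p of 0.05 by edgeR, 4 by DESeq2 and 13 by limma-voom. Without AMC 3 the miR-29c value was 0.03. For miR-29b the interval ran from 0.605 to 1.69 times the AMC level.

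Set against AMC, RIPC+LAD showed log2 fold changes of 0.35 ± 0.28 for miR-29a (interval −0.25 to 0.96, adjusted p = 0.662), −0.01 ± 0.39 for miR-29b (adjusted p = 0.999) and 0.34 ± 0.34 for miR-29c (interval −0.38 to 1.05, adjusted p = 0.729). Both RIPC+LAD samples exceeded all AMC samples in miR-29a only, beside 12.6% of detected microRNAs that separated upward in counts per 100000 and 17% in TMM-scaled values. Leaving out 1 sample moved miR-29c between 0.10, without RIPC+LAD 2, and 0.68, without AMC 3, and miR-29a between 0.17, without RIPC+LAD 2, and 0.46, without AMC 3. The ligation control covariate, with the limit given above, gave −0.13 for miR-29a, −0.77 for miR-29b and −0.27 for miR-29c. Both RIPC+LAD samples belong to the low spike-in set and all AMC samples to the high one. This comparison is therefore also one between the sets. When the fit allowed for the set, the log2 fold changes were 0.28 ± 0.39 for miR-29a, 0.16 ± 0.57 for miR-29b and −0.0077 ± 0.46 for miR-29c. That fit can estimate the set difference only from LAD and RIPC, the groups with samples in both sets. The edgeR fit called 0 of 3 members and 0 of 253 microRNAs (0%), 22 stood at an unadjusted p of 0.05, and DESeq2 counted 15 there and called 1, which was no member.

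Preconditioning without ligation, together with its surgery, was read from RIPC against AMC. The log2 fold changes were 0.05 ± 0.29 for miR-29a, −0.06 ± 0.39 for miR-29b and −0.28 ± 0.34 for miR-29c (adjusted p = 0.997 for each, edgeR). In counts per 100000 both RIPC samples lay above all AMC samples in miR-29a, beside 8.3% of detected microRNAs that did so, whereas in TMM-scaled values the groups overlapped in all 3 members. The interval of the miR-29a log2 fold change ran from −0.55 to 0.66. No member was among the 3 microRNAs at an unadjusted p of 0.05 in edgeR (2 by DESeq2, 3 by limma-voom), and 0 of 253 (0%) were called.

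In preconditioned animals the ligation, together with its surgery, was read from RIPC+LAD against RIPC. miR-29c was 1.53 times as high in RIPC+LAD, with a log2 fold change of 0.62 ± 0.37 (interval −0.17 to 1.41, adjusted p = 0.586), and its samples did not overlap, beside 19.4% of detected microRNAs that separated in that direction in this comparison of 2 animals with 2. In TMM-scaled values miR-29a and miR-29c both separated, beside 27.3%. Leaving out 1 sample moved the miR-29c value between 0.33, without RIPC 2, and 0.97, without RIPC 1, and a ligation control covariate gave 0.023. miR-29a differed by 0.30 ± 0.31 (adjusted p = 0.763) and miR-29b by 0.05 ± 0.43 (adjusted p = 0.947) on the log2 scale. Of the microRNAs, 17 stood at an unadjusted p of 0.05 in edgeR, 12 in DESeq2 and 14 in limma-voom, and edgeR called 0 of 253 (0%) and 0 of 3 members.

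Between the single treatments, LAD against RIPC, the log2 fold changes were −0.13 ± 0.29 for miR-29a, 0.08 ± 0.39 for miR-29b and −0.03 ± 0.34 for miR-29c, and all members overlapped. The edgeR test called 0 of 253 (0%), with 7 at an unadjusted p of 0.05, 4 by DESeq2 and 5 by limma-voom. The interaction, which subtracts the LAD minus AMC difference from the RIPC+LAD minus RIPC difference, tests whether the ligation difference itself changed with preconditioning. It was 0.93 ± 0.48 for miR-29c (interval −0.09 to 1.95, unadjusted p = 0.0717, adjusted p = 0.443), 0.38 ± 0.40 for miR-29a (adjusted p = 0.745) and 0.03 ± 0.55 for miR-29b (adjusted p = 0.983). Here too 0 of 253 (0%) were called by edgeR, with 31 at an unadjusted p of 0.05, 17 by DESeq2 and 28 by limma-voom. Leaving out 1 sample moved the miR-29c interaction between 0.59, without AMC 3, and 1.28, without RIPC 1. By edgeR's quasi-likelihood test the unadjusted p was 0.0350 without RIPC 1 (adjusted p = 0.260) and 0.0292 without AMC 1 (adjusted p = 0.382). A ligation control covariate, with the limit given above, gave 0.016. The comparisons share groups, so the values of a member across them are not independent of each other.

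**Figure D2:**
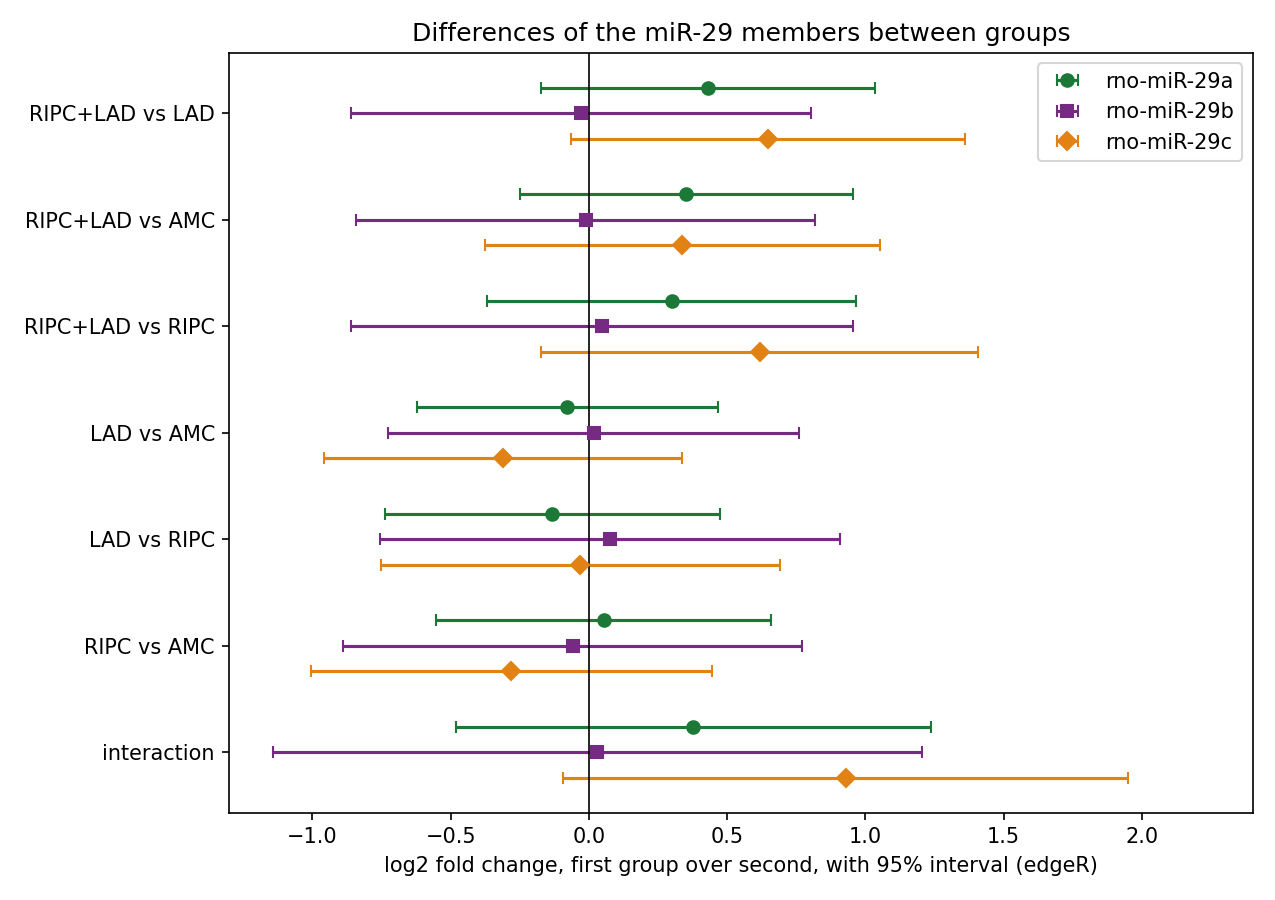
Log2 fold changes of the 3 members (horizontal axis, first group over second) with 95% intervals from the edgeR fit, for the 6 comparisons of groups and the interaction of preconditioning with ligation. All 21 intervals include 0, and the miR-29c intervals for RIPC+LAD against LAD and for the interaction reach least far below 0, to −0.07 and −0.09.

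The ratio of members within a sample depends on neither depth nor scaling and shows whether the family kept its proportions. The log2 ratio of miR-29c to miR-29a was −1.03 and −0.92 in RIPC+LAD, −1.34, −1.34 and −0.82 in LAD, −1.15 and −1.47 in RIPC, and −1.44, −0.97 and −0.63 in AMC. Its means were −0.97 ± 0.08 in RIPC+LAD, −1.17 ± 0.30 in LAD, −1.31 ± 0.23 in RIPC and −1.02 ± 0.41 in AMC. Only RIPC+LAD and RIPC did not overlap, by a difference of 0.34 ± 0.17 (SE). With 2 animals a group the exact two-sided permutation test gave p = 0.333, the smallest it allows there.

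The log2 ratio of miR-29b to miR-29a was −1.15 and −1.32 in RIPC+LAD, −0.82, −0.53 and −1.19 in LAD, −1.31 and −0.67 in RIPC, and −1.22, −1.28 and −0.43 in AMC. The means were −1.24 ± 0.12 in RIPC+LAD, −0.85 ± 0.33 in LAD, −0.99 ± 0.45 in RIPC and −0.97 ± 0.47 in AMC, and every pair of groups overlapped. Over both ratios and 6 comparisons, the 12 exact permutation p-values ran from 0.333 to 1, and from 0.873 to 1 after Benjamini-Hochberg adjustment. With 3 animals in both groups the smallest possible p was 0.1, and with fewer animals it was larger, so no difference of these ratios could reach 0.05. For miR-29c and miR-29b, which share the chromosome 13 locus, the SD of the log2 ratio over the 10 samples was 0.46, against 0.34 for miR-29b to miR-29a and 0.28 for miR-29c to miR-29a.

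**Figure D3:**
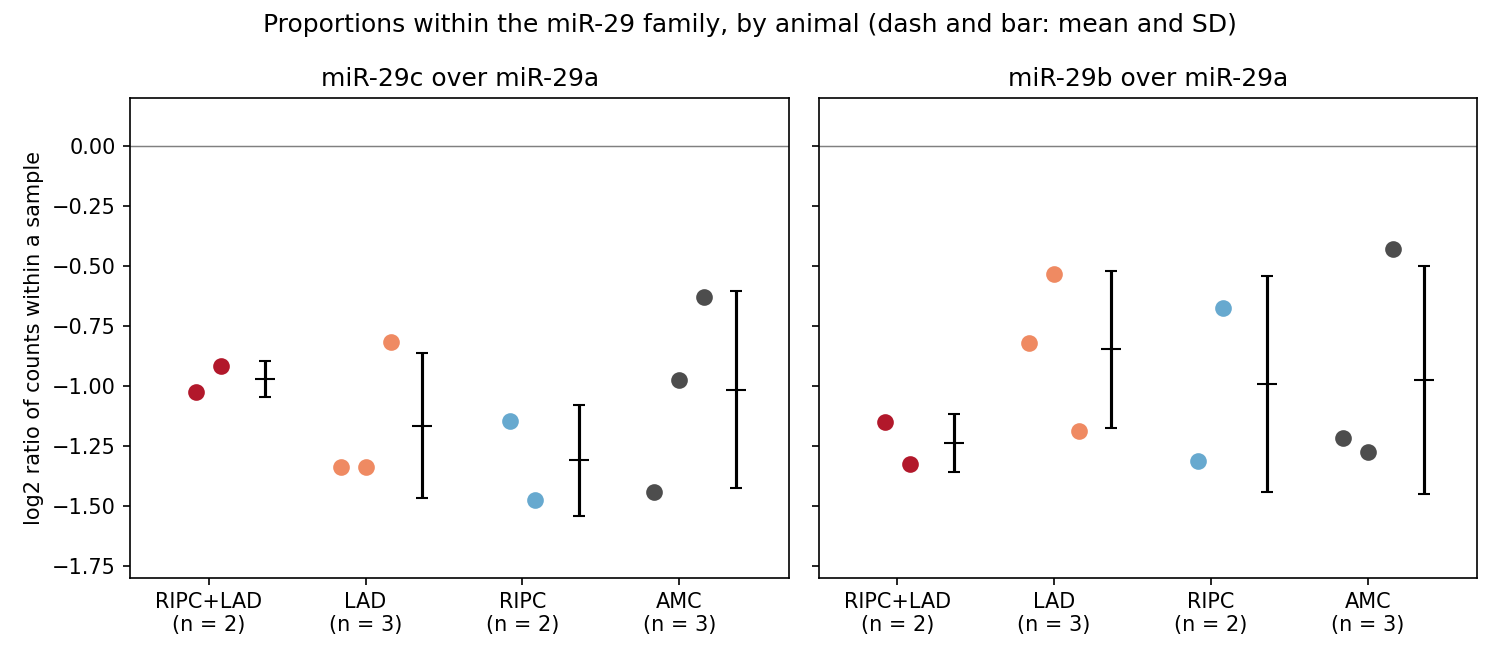
Log2 ratio of counts within each animal (vertical axis) for miR-29c over miR-29a and for miR-29b over miR-29a, with the group mean as a dash and the SD as a bar. Both RIPC+LAD animals lie near −1 for miR-29c over miR-29a, between −1.03 and −0.92, within the range of the LAD and AMC animals.

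The microRNAs with the steadiest ratio to a member were found by the SD of their log2 ratio to it over the 10 samples, among the 250 detected microRNAs outside the family. For miR-29a these were miR-125b-5p (0.11), miR-99b (0.16) and miR-107 (0.20), against a median of 0.53 over the 250. For miR-29b they were miR-96 (0.24), miR-331 (0.33) and miR-148b-3p (0.33), against 0.62. For miR-29c they were miR-145 (0.15), miR-125a-5p (0.19) and miR-125b-5p (0.23), against 0.62. Of the 250, 17 had a ratio to miR-29a at least as steady as that of miR-29c, and 34 at least as steady as that of miR-29b. These are descriptions over the 10 samples, with both microRNAs of a ratio counted in the same sample, and carry no test.

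Other microRNAs linked to matrix and fibrosis, or to DNA methyltransferases, were read as lists. Whether the matrix and fibrosis list shares targets with the family was not looked at. That list was not split by whether a microRNA promotes or limits fibrosis. Of 14 detected microRNAs of matrix and fibrosis, 7 were higher and 7 lower in RIPC+LAD than in LAD by sign, with a median log2 fold change of −0.03, beside 130 higher and 123 lower with a median of 0.02 over all 253. None was called in either direction. miR-30c, the most abundant of them and a repressor of the matrix-associated growth factor Ctgf, had −1.12 ± 0.35 (adjusted p = 0.114), and miR-30d had 0.42 ± 0.34 (adjusted p = 0.513). In LAD against AMC, 10 of the 14 were higher and 4 lower with a median of 0.15, beside 121 and 132 with −0.01 over all 253. In RIPC+LAD against RIPC 10 were higher and 4 lower with a median of 0.30, beside 133 and 120 with 0.07 over all 253. None of the 14 was called in these comparisons. Of the 3 detected microRNAs on the DNA methyltransferase list, which leaves out the miR-29 family, 2 were higher and 1 lower in RIPC+LAD than in LAD, none called. The 2 most abundant were the higher ones, with 0.12 ± 0.31 for miR-148b-3p (adjusted p = 0.866) and 0.15 ± 0.50 for miR-152 (adjusted p = 0.900).

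Markers of the cell types a punch can hold were read beside the members. Over all 253 microRNAs, 130 were higher and 123 lower in RIPC+LAD than in LAD, with a median of 0.02. The 5 choroid plexus and ciliated-cell microRNAs, all detected, summed to 1841 and 2047 counts per 100000 in RIPC+LAD, 2063 to 18678 in LAD, 2482 and 10006 in RIPC and 1796 to 5866 in AMC, and all 5 were lower by sign in RIPC+LAD than in LAD (median −1.51, none called). The 3 oligodendrocyte microRNAs summed to 982 and 1762 in RIPC+LAD and 1991 to 5143 in LAD, all 3 lower by sign (median −1.05, none called). The 4 astrocyte-enriched microRNAs, a class in which miR-29 itself is often placed, summed to 812 and 896 in RIPC+LAD, 706 to 901 in LAD, 791 and 839 in RIPC and 648 to 736 in AMC, so that RIPC+LAD and LAD overlapped, with 2 of 4 higher in RIPC+LAD by sign (median 0.11, none called). The 6 neuron-enriched microRNAs summed to 7225 and 8320 in RIPC+LAD and 5125 to 10540 in LAD, and miR-124 made at least 84.3% of that sum in each sample. By sign 5 of the 6 exceeded LAD in RIPC+LAD (median 0.63, none called, 2 at an unadjusted p below 0.05 by edgeR, beside 44 of all 253), with 0.14 ± 0.38 for miR-124 (adjusted p = 0.883) and 1.21 ± 0.35 for miR-218a (adjusted p = 0.114). The 3 vascular microRNAs summed to 2412 and 2663 in RIPC+LAD and 2103 to 3202 in LAD (median 0.04, 2 of 3 higher, none called). The 3 detected of 4 immune-cell microRNAs summed to 1054 and 1384 in RIPC+LAD and 1706 to 1884 in LAD, and the 2 erythrocyte microRNAs to 11.8 and 13.6 in RIPC+LAD and 16.6 to 49.0 in LAD. The mean sums of the choroid plexus, oligodendrocyte, immune and erythrocyte lists were thus lower in RIPC+LAD than in LAD. Over the 10 samples the most counted microRNA was miR-204 for choroid plexus and ciliated cells (mean 4891 counts per 100000). It was miR-338 for oligodendrocytes (1751) and miR-150 for immune cells (1580), so these sums largely follow single microRNAs. By sign 5 of 6 neuron-enriched microRNAs were higher, and the part of these lists in the values of the miR-29 members was not tested.

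How the RIPC+LAD against LAD values depended on the processing was read member by member. Over 12 other settings the log2 fold change ran from −0.24 to 0.58 for miR-29a, −1.16 to 0.13 for miR-29b and −0.27 to 0.80 for miR-29c, with the lowest value from the ligation control as a covariate in each. Leaving out 1 sample at a time gave 0.20 to 0.55 for miR-29a, −0.38 to 0.27 for miR-29b and 0.39 to 0.75 for miR-29c. Scaling to the spike-in controls, chosen after seeing the data, gave 1.35 for miR-29a, 0.86 for miR-29b and 1.62 for miR-29c (adjusted p = 0.0340 for miR-29c, edgeR). Under that scaling 50 of 253 microRNAs were called, all 50 higher in RIPC+LAD. It moved the median of all 253 microRNAs by 0.96 on the log2 scale, so that miR-29c stood 0.64 above the median of 0.98.

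**Figure D4:**
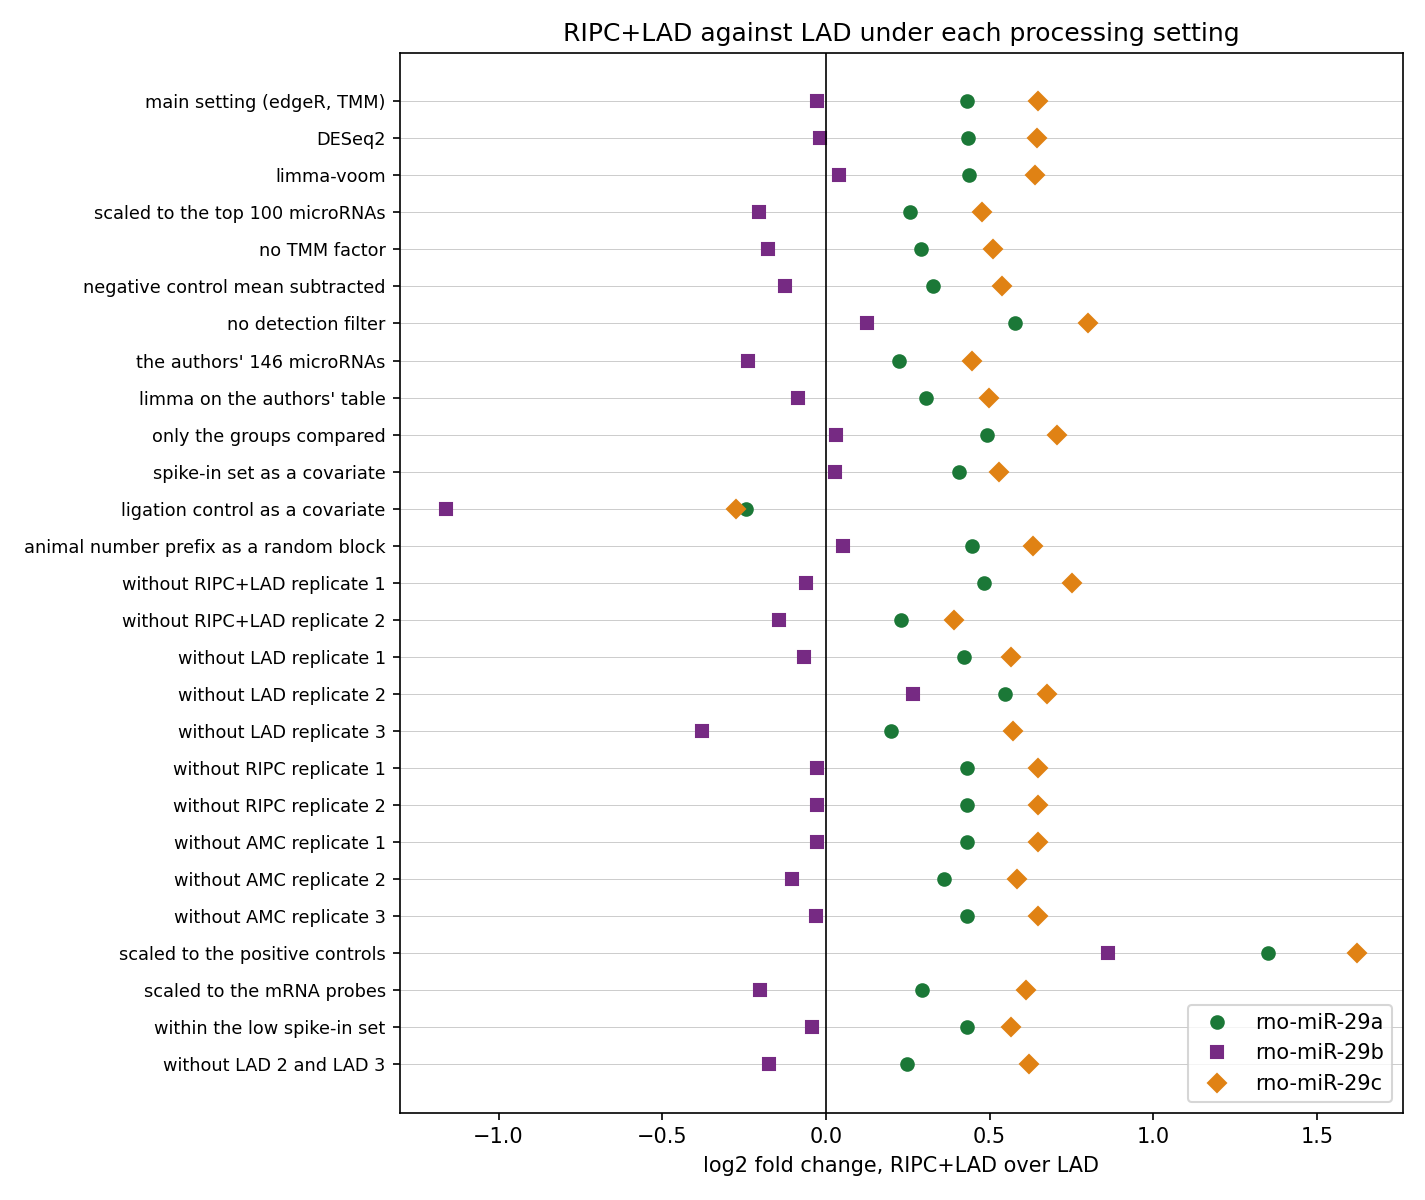
Log2 fold change of each member for RIPC+LAD over LAD (horizontal axis) under the main setting, at the top, and under each alternative. miR-29a and miR-29c lie right of 0 except with the ligation control as a covariate, at −0.24 and −0.27, and scaling to the positive (spike-in) controls moves all 3 members to between 0.86 and 1.62.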

How the data were processed

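Whole-number counts per probe, made by the authors on the nCounter platform by imaging ligated, barcoded microRNAs with no amplification step, were used as deposited for 420 microRNAs, 4 mRNAs and the control probes. The counting software was not named in the sources consulted. A second table of the authors holds log2 values for 146 microRNAs, including the 3 members. For the 144 matched to the counts by name, members included, the values equal log2 of counts per 100000 within 4.98e-09.

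Groups followed the treatment labels, with 1 sample per animal, and p-values measure the spread between these samples. Detection required, in 2 or more samples, a count more than 2 SD over the average negative control of that sample (253 of 420 microRNAs). Totals ran from 28485 to 102824, and count intervals cover counting error only. After TMM scaling, all 10 samples entered 1 edgeR 4.0.16 quasi-likelihood fit (R 4.3.3). Two-sided p-values were adjusted by Benjamini-Hochberg over the 253, with 0.05 as the threshold. The biological coefficient of variation was 0.287 in common and 0.249 to 0.320 for the members. Each SE was derived from the log2 fold change and its F statistic. Ratios within a sample were compared by exact two-sided permutation (scipy 1.17.1). The fit was also run on simulated data with planted changes, and the share it recovered is not reported here.

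Alternatives were DESeq2 1.42.0, limma-voom (limma 3.58.1), limma on the authors' table, other scalings and filters, covariates, the animal number prefix as a random block, and samples left out. Scaling to the positive controls or the mRNAs, fits within a spike-in set, the fit without LAD 2 and LAD 3, and the overlap of groups in TMM-scaled values were chosen after seeing the data. The members and the microRNA lists were chosen with earlier results of these data known. The text names all members, the 3 microRNAs nearest to each by the SD of the log2 ratio, and at most 2 of the most abundant microRNAs of a list. Sequences and gene order came from RefSeq tables of assembly GRCr8. The authors' template matching was not repeated.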

Additional observations from a re-analysis of the deposited data

How the results depend on the processing

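The count of called microRNAs, 0 of 253 for each comparison, moved to 1 for RIPC+LAD against AMC with DESeq2, to 8 for RIPC+LAD against RIPC when only the groups compared were fitted, and with the animal number prefix as a random block to 1 for RIPC+LAD against LAD and 1 for the interaction. Among settings chosen after seeing the data it was 50 of 253 for RIPC+LAD against LAD when scaled to the positive controls, all 50 higher in RIPC+LAD. It was 2 for the interaction when scaled to the mRNAs. Within the high spike-in set it was 4 for LAD against AMC and 2 for LAD against RIPC, and within the low set 2 for RIPC+LAD against RIPC and 3 for LAD against RIPC. Without LAD 2 and LAD 3 it was 3 for RIPC+LAD against LAD and 2 for the interaction. Leaving out 1 sample gave 0 to 1 for RIPC+LAD against AMC (1 without LAD 1, and 1 without AMC 3) and 0 to 1 for the interaction (1 without RIPC 1). The only member called under any of these settings was miR-29c, for RIPC+LAD against LAD scaled to the positive controls (log2 fold change 1.62). In the fit with the prefix as a block the correlation within a prefix was −0.227. Both RIPC+LAD animals shared a prefix there, as did LAD 2 and LAD 3, and likewise AMC 2 and AMC 3. The causes of these moves in the count were not tested.

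Of 540 member log2 fold changes under other settings, 107 took the opposite sign to the reported value, and 97 of these belonged to reported values smaller than their own SE. None of the 107 was called, and they are given here by setting. DESeq2 gave, in miR-29b 0.0042 for RIPC+LAD against AMC. limma-voom gave, in miR-29b 0.041 for RIPC+LAD against LAD, 0.090 for RIPC+LAD against AMC and 0.035 for RIPC against AMC, and in miR-29c 0.0027 for LAD against RIPC. Scaling to the top 100 microRNAs gave, in miR-29a 0.058 for LAD against AMC, in miR-29b 0.057 for RIPC against AMC, −0.084 for RIPC+LAD against RIPC and −0.26 for the interaction, and in miR-29c 0.044 for LAD against RIPC. Without a TMM factor the values were, in miR-29b 0.087 for RIPC against AMC, −0.16 for RIPC+LAD against RIPC and −0.26 for the interaction. Subtracting the negative control mean gave, in miR-29b −0.012 for LAD against AMC, −0.078 for RIPC+LAD against RIPC and −0.066 for the interaction. Without a detection filter the values were, in miR-29b 0.13 for RIPC+LAD against LAD, −0.029 for LAD against AMC, 0.098 for RIPC+LAD against AMC, 0.050 for RIPC against AMC and −0.079 for LAD against RIPC. The authors' filtered microRNAs gave, in miR-29a 0.035 for LAD against AMC, and in miR-29b 0.072 for RIPC against AMC, −0.17 for RIPC+LAD against RIPC and −0.31 for the interaction. limma on the authors' table gave, in miR-29b 0.11 for RIPC against AMC, −0.12 for RIPC+LAD against RIPC, −0.034 for LAD against RIPC and −0.20 for the interaction. Fitting only the groups compared gave, in miR-29b 0.032 for RIPC+LAD against LAD. The spike-in set as a covariate gave, in miR-29b 0.027 for RIPC+LAD against LAD, 0.16 for RIPC+LAD against AMC and 0.018 for RIPC against AMC, and in miR-29c −0.0077 for RIPC+LAD against AMC. The ligation control as a covariate gave, in miR-29a −0.24 for RIPC+LAD against LAD, 0.11 for LAD against AMC, −0.13 for RIPC+LAD against AMC, −0.17 for RIPC+LAD against RIPC, 0.075 for LAD against RIPC and −0.28 for the interaction, in miR-29b 0.070 for RIPC against AMC, −0.84 for RIPC+LAD against RIPC and −1.23 for the interaction, and in miR-29c −0.27 for RIPC+LAD against LAD, 0.0066 for LAD against AMC, −0.27 for RIPC+LAD against AMC and 0.30 for LAD against RIPC. The animal number prefix as a random block gave, in miR-29b 0.052 for RIPC+LAD against LAD, 0.062 for RIPC+LAD against AMC and 0.0072 for RIPC against AMC, and in miR-29c 0.010 for LAD against RIPC. Scaling to the positive controls gave, in miR-29b 0.86 for RIPC+LAD against LAD, −0.40 for LAD against AMC, 0.46 for RIPC+LAD against AMC and −0.28 for LAD against RIPC. Scaling to the mRNAs gave, in miR-29a 0.30 for LAD against AMC, −0.36 for RIPC+LAD against RIPC and −0.66 for the interaction, in miR-29b 0.29 for RIPC+LAD against AMC, 0.93 for RIPC against AMC, −0.64 for RIPC+LAD against RIPC, −0.44 for LAD against RIPC and −1.14 for the interaction, and in miR-29c 0.054 for LAD against AMC, 0.69 for RIPC against AMC, −0.026 for RIPC+LAD against RIPC and −0.080 for the interaction. Within the high spike-in set the values were, in miR-29a 0.054 for LAD against AMC, −0.087 for RIPC against AMC and 0.14 for LAD against RIPC, in miR-29b 0.13 for RIPC against AMC and −0.0076 for LAD against RIPC, and in miR-29c 0.28 for LAD against RIPC. Without LAD 2 and LAD 3 the values were, in miR-29a 0.054 for LAD against AMC and 0.020 for LAD against RIPC, and in miR-29b −0.11 for the interaction.

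With 1 sample left out, the log2 fold changes that changed sign ran in miR-29a −0.19 to 0.10 for LAD against AMC, −0.11 to 0.20 for RIPC against AMC and −0.28 to 0.069 for LAD against RIPC, in miR-29b −0.38 to 0.27 for RIPC+LAD against LAD, −0.28 to 0.49 for LAD against AMC, −0.26 to 0.46 for RIPC+LAD against AMC, −0.27 to 0.41 for RIPC against AMC, −0.11 to 0.22 for RIPC+LAD against RIPC, −0.22 to 0.39 for LAD against RIPC and −0.44 to 0.32 for the interaction, and in miR-29c −0.54 to 0.032 for LAD against AMC, −0.63 to 0.063 for RIPC against AMC and −0.32 to 0.32 for LAD against RIPC. The differences of log2 ratios that changed sign ran in miR-29c to miR-29a −0.36 to 0.043 for LAD against AMC, −0.17 to 0.24 for RIPC+LAD against AMC and −0.029 to 0.31 for LAD against RIPC, and in miR-29b to miR-29a −0.030 to 0.40 for LAD against AMC, −0.41 to 0.010 for RIPC+LAD against AMC, −0.34 to 0.30 for RIPC against AMC, −0.56 to 0.074 for RIPC+LAD against RIPC and −0.17 to 0.46 for LAD against RIPC. No paired analysis was possible because the labels give no replicate numbers, samples were numbered in accession order, and no animal number prefix spans groups, so nothing ties an animal of one group to an animal of another. The smallest member count was 202, and the wide intervals come with groups of 2 or 3 animals.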
